A study of Gallus gallus with 12 samples.

Results

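Adult chicken red blood cells (aRBC) were compared with chicken primary fibroblasts by RNA-seq of total RNA, with 3 samples of each cell type out of 12 samples in the series. All genes listed in either of the 2 deposited tables were included, which made 13487 of the 13889 genes listed for any cell type. The red blood cells were taken from hens between 28 and 38 weeks of age. The fibroblasts were primary cells grown in DMEM with fetal bovine serum, chicken serum and antibiotics. Both cell types are given as WT. The tissue and age from which the fibroblasts came, and whether samples came from separate hens or cultures, are not given in the sources used here. The p-values below therefore measure the spread between these samples, which may be technical.

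Unlike mammalian red blood cells, those of birds still carry a nucleus when they circulate. Their chromatin is condensed, and transcription in the mature cell is low. Fibroblasts are connective tissue cells that divide in culture and secrete extracellular matrix. The title of the series concerns pausing of RNA polymerase II, the state in which the enzyme waits shortly after the start of a gene, and chromatin organization in erythrocytes.

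The values were FPKM, fragment counts corrected for gene length and library size, then scaled by the authors to cell number. They are called scaled FPKM here. The tables listed 13451 genes in fibroblasts and 804 in aRBC, and each list stopped at a deposited average of 0.3, so a gene missing from a table was read as below 0.3 and not as 0. The scaling factor of the authors is not stated. From whole reads recovered from the values, the factor was taken as 1 for fibroblasts and put at 0.00253 or more for aRBC, if the 3 aRBC samples share 1 factor. Before scaling, the cutoff of 0.3 would then be an FPKM no higher than 118 in aRBC, so a gene missing from the aRBC table is not shown to be silent. In bulk samples fewer cells of a type and less RNA per cell cannot be told apart. Genes are given by Ensembl IDs that neither the files nor the RefSeq table used here pairs with names. The labelled cell types could therefore not be checked against marker genes, and apart from 4 IDs, genes are described by their length and level.

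aRBC replicate 3 stood apart from the other 2, and it had the fewest reads on listed genes of the 6. Reads on listed genes numbered 5363928, 9541884 and 2916238 in aRBC and 8853483, 23385194 and 18979351 in fibroblasts. The median reads per listed gene were 2855.5, 4188.5 and 1078 in aRBC and 166, 451 and 344 in fibroblasts. The lists differ in length, so these numbers do not compare library depth between the cell types. Across the 768 genes in both tables, Spearman's rho was 0.793 between aRBC replicates 1 and 2, but 0.353 and 0.188 between replicate 3 and each of them. It was 0.921 to 0.969 within fibroblasts. The part of depth in this difference was not tested.

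On the authors' scale per cell, aRBC had a lower sum of signal than fibroblasts, in fewer genes. The sum of scaled FPKM was 2056, 3298 and 2875 in aRBC replicates 1 to 3, and 494482, 574473 and 507714 in fibroblast replicates 1 to 3. The fibroblast mean was 192-fold higher. A scaled FPKM of 1 or more was reached by 173, 150 and 184 genes in the aRBC samples against 11620, 11366 and 11631 in the fibroblast samples. Neither quantity overlapped between the groups. The two-sided exact permutation p was 0.1 for each, and the adjusted p over 4 such tests was also 0.1; groups of 3 cannot give a smaller value. The scaling factor is not stated and its error is unknown, so these tests cover the spread between samples and not the factor. A lowest factor for aRBC was taken from the recovered reads, if the 3 aRBC samples share 1 factor. Divided by it, the aRBC sums would be 811747, 1302190 and 1135172, which are upper limits under that condition. These limits lie above the fibroblast sums, so which group had the larger sum before scaling cannot be told. With the top 10 genes of every sample removed, the fold of the sums was 401, and over the genes in both tables it was 91.0. Without aRBC replicate 3 the ratio of the sums was 196 and that of the gene numbers 71.4.

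Of the 13487 genes, 768 were in both tables, 12683 in the fibroblast table alone and 36 in the aRBC table alone. The 768 shared genes made up 95.5% of the aRBC list and 5.71% of the fibroblast list. Nearly every gene listed in aRBC was thus also listed in fibroblasts. The fibroblast list itself held 13451 of the 13889 genes listed for any cell type, so such an overlap is not particular to aRBC. The share of fibroblast genes that also appeared in aRBC was larger in each higher class of fibroblast level. Of 1749 genes with a fibroblast mean from 0.3 to 1, 11 were in the aRBC list, which is 0.629%. The share was 2.59% of 5375 genes from 1 to 10, and 7.94% of 5771 genes from 10 to 100. It was 26.8% of 522 genes from 100 to 1000, and 20 of the 34 genes at 1000 or more, which is 58.8%. These are counts of genes, which are not replicates, and they carry no test.

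**Figure D1:**
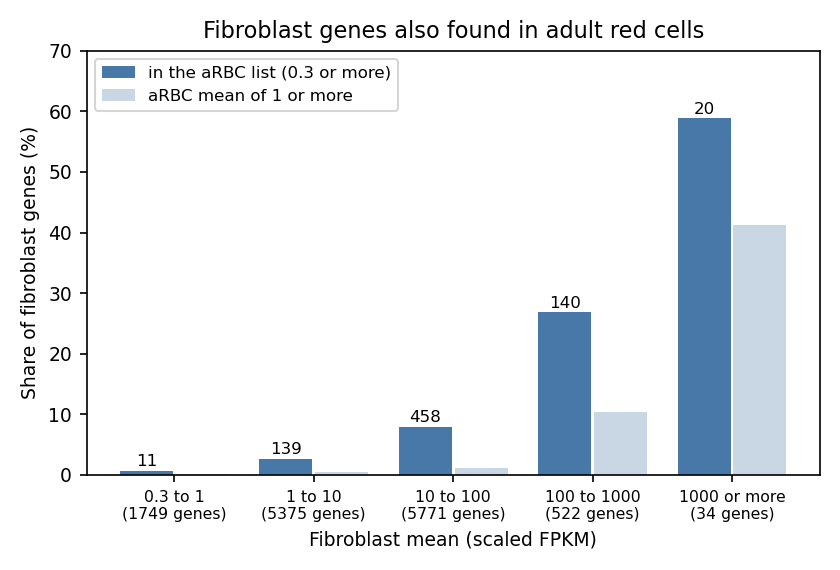
Share of the genes listed in fibroblasts (y axis, %) that were also listed in aRBC (dark bars, number of genes above each) or reached an aRBC mean of 1 (light bars), by class of fibroblast mean in scaled FPKM (x axis, number of genes in brackets). The dark bars go from 0.629% in the lowest class to 58.8% in the highest.

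Many genes with high fibroblast levels were missing from the aRBC list. Of the 10 highest fibroblast genes 9 were listed in aRBC, of the 50 highest 31, of the 100 highest 62 and of the 500 highest 153. For the genes missing from aRBC a lower bound of the fold was taken as the fibroblast mean divided by 0.3. By this bound 9082 of the 12683 genes, or 71.6%, were at least 10-fold lower in aRBC, 2013 were at least 100-fold lower and 87 were at least 1000-fold lower. The median bound was 27.6. These bounds hold on the authors' scale per cell and rest on the unstated scaling factor.

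The highest gene of this kind, with a length of 2046 bp, ranked 8 in fibroblasts. Its scaled FPKM was 4080, 4589 and 3068 in the 3 fibroblast samples. On the authors' scale per cell it was thus at least 13042-fold lower in aRBC. It was listed neither in HD3 erythroblasts, a chicken erythroid precursor line, nor in red blood cells of embryonic day 10 (eRBC). Others varied between the fibroblast samples: a gene of 299 bp was at 958, 4844 and 1111, and a gene of 5994 bp at 2366, 525 and 2277. Of the 12683 genes 9150 were listed in HD3 erythroblasts, 857 in eRBC and 3519 in neither. For comparison, of all 13889 genes listed for any cell type, HD3 erythroblasts listed 10303 and eRBC 1354.

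The 36 genes of the aRBC table alone had low levels there. Their median aRBC mean was 0.489, and 8 of them reached 1. Their values rested on 39 to 36649 reads per sample. Because the fibroblast level was below 0.3, 14 of them were at least 2-fold higher in aRBC and 7 at least 4-fold higher. These bounds also hold only on the authors' scale per cell. The highest had a length of 584 bp and levels of 4.34, 0.102 and 2.12 in aRBC replicates 1 to 3. It was at least 7.30-fold higher in aRBC by its mean, but its replicate 2 lay below the cutoff. In 15 of the 36 genes all 3 aRBC samples were at or above 0.3. A gene of 4158 bp was even across samples, at 1.49, 1.38 and 1.29, and at least 4.62-fold higher in aRBC than in fibroblasts. It had a mean of 15.1 in HD3 erythroblasts and 0.432 in eRBC. Of the 36 genes 16 were listed in eRBC, 11 in HD3 erythroblasts and 15 in aRBC alone among the 4 cell types. Over the 13889 genes of the series, eRBC listed 1354 and HD3 erythroblasts 10303.

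Among the 768 genes in both tables, levels were lower in aRBC with few exceptions, and the size of the difference varied by several orders of magnitude. The ratio of the fibroblast mean to the aRBC mean had a median of 49.3. Its middle part, from the 25th to the 75th percentile, ran from 18.0 to 122, and its 5th and 95th percentiles were 3.30 and 969. The ratio was 1000 or more for 35 genes, 100 or more for 237 and under 1 for 8. All 3 aRBC samples lay below all 3 fibroblast samples for 729 of the 768 genes (94.9%), above them for 4 (0.521%), and overlapped for 35. The ratio cannot exceed the fibroblast mean divided by 0.3 for a listed gene. Its median went from 8.94 for shared genes with a fibroblast mean of 1 to 10 to 1332 for those at 1000 or more.

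Differences were tested with limma on log2(scaled FPKM + 1) for the 756 shared genes with a mean of at least 1 over the 6 samples. On this scale the SE and p-values cover the spread between samples and not the unstated scaling factor. A gene was called at a Benjamini-Hochberg adjusted p under 0.05 with a log2 fold change of 1 or more in size. By this rule 729 genes, or 96.4%, were called. In aRBC 727 were lower (96.2% of those tested) and 2 were higher (0.265%). Only 156 of the 756 genes had a mean of at least 1 in each group, and of these 141 were lower and 0 higher. The others passed the filter through 1 group, mostly fibroblasts. The filter thus set the direction of their difference. Neither their share of lower calls nor the direction of the 2 higher genes, which passed through aRBC, is a separate result. The median log2 fold change over the 756 genes was -4.14, and the called falls ran from -1.06 to -11.32. Of the 27 genes not called, 21 had a log2 fold change below 0 and 6 above. The log2(scaled FPKM + 1) scale understates the change of low genes: with a pseudocount of 0.1 the median was -5.45.

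**Figure D2:**
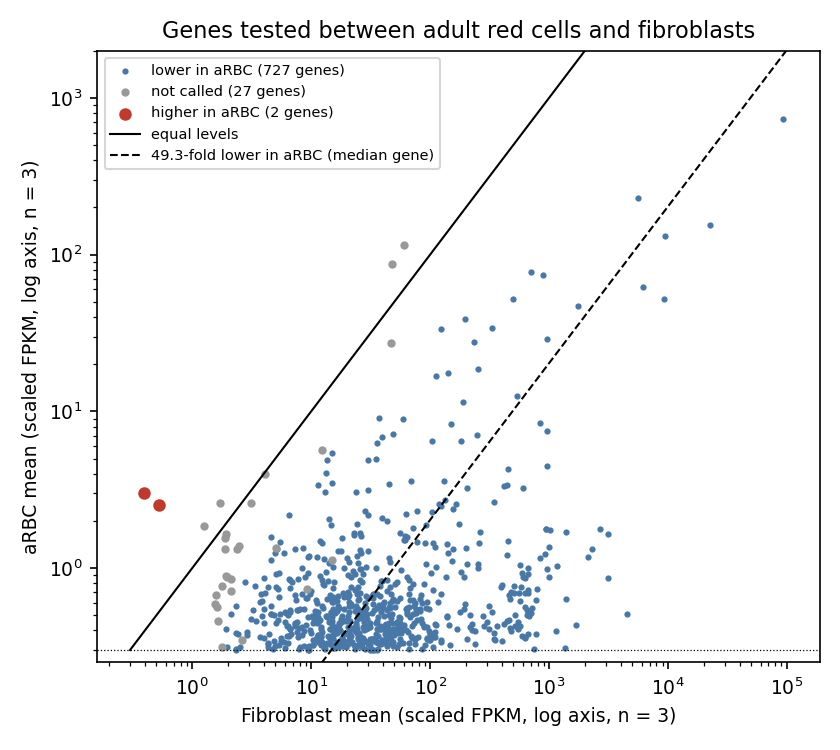
Mean scaled FPKM of the 756 tested genes in fibroblasts (x axis) and aRBC (y axis), both on log axes with n = 3 samples a group. Points are genes, coloured by the limma call; the solid line marks equal levels, the dashed line the median ratio of 49.3 over the 768 shared genes, and the dotted line the cutoff of 0.3. The 727 genes called lower lie below the solid line and the 2 called higher at its left end above it.

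The 2 genes called higher in aRBC were near the cutoff in fibroblasts. Their fibroblast means were below 1, so they passed the filter only through aRBC, which set their direction in the main fit. In the fit without the filter both were also called higher. ENSGALG00000022875, with a length of 2993 bp, had a scaled FPKM of 4.01, 3.30 and 1.72 in aRBC replicates 1 to 3 and 0.479, 0.0835 and 0.621 in fibroblast replicates 1 to 3. The groups did not overlap, which was a condition for giving a gene by ID. The aRBC mean of 3.01 ± 1.17 (SD, n = 3) was 7.64-fold the fibroblast mean. The log2 fold change was 1.4999 (SE 0.31; limma adjusted p = 0.00230). The fibroblast values rested on 13, 6 and 36 reads and the aRBC values on 29844, 40757 and 5943. In eRBC the gene was at 0.980 ± 0.168 (SD, n = 3), and HD3 erythroblasts did not list it.

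ENSGALG00000049461, with a length of 2057 bp, was at 3.61, 2.23 and 1.72 in aRBC and at 0.750, 0.385 and 0.452 in fibroblasts. Every aRBC sample was above every fibroblast sample, as the choice of genes required, and the ratio of the means was 4.76. On the log2 scale the difference was 1.17 (SE 0.27; limma adjusted p = 0.00418). Without aRBC replicate 1 it was 0.96, which is under the threshold of 1. The 3 fibroblast values rested on 14, 19 and 18 reads. In eRBC the gene was at 4.004 ± 0.872 (SD, n = 3), and HD3 erythroblasts did not list it. Both genes were thus listed in embryonic and adult red blood cells and not in the erythroblast line.

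Among the tested genes of both tables, the largest fall was that of ENSGALG00000003578, with a length of 9525 bp, which ranked 7 in fibroblasts and 404 in aRBC. Its scaled FPKM was 5329, 1624 and 6554 in fibroblasts and 0.699, 0.280 and 0.550 in aRBC. The lowest fibroblast sample was replicate 2, and the groups did not overlap, as the choice of genes required. The log2 fold change was -11.32 (SE 0.57; limma adjusted p = 5.22e-07), and the ratio of the means was 8837. The gene had an aRBC mean of 0.509 and passed the filter only through fibroblasts, which set the direction of its fall. The aRBC values rested on 16532, 11007 and 6028 reads. HD3 erythroblasts had 1.24 ± 0.312 (SD, n = 3), and eRBC did not list the gene.

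ENSGALG00000017926, with a length of 329 bp, had the highest mean in each of the 4 cell types. In HD3 erythroblasts the gene was at 29241 ± 15388 (SD, n = 3) and in eRBC at 3727 ± 1719 (SD, n = 3). It was at 432, 1512 and 271 in aRBC replicates 1 to 3, against 86956, 100082 and 92060 in fibroblasts. The 3 fibroblast samples were close together, while aRBC replicate 2 stood well above the other 2. Per cell the log2 fold change was -7.37 (SE 1.05; limma adjusted p = 0.000269). The call depended on the scaling. After median centring the gene was still called lower, at -3.06 (limma adjusted p of 0.0268). With samples scaled to equal sums the log2 fold change was -0.84 (limma adjusted p of 0.547), and as a share of the listed reads it was 1.27 (limma adjusted p of 0.155). Its share of those reads was 6.59%, 21.5% and 3.52% in aRBC and 2.93%, 3.38% and 3.09% in fibroblasts.

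**Figure D3:**
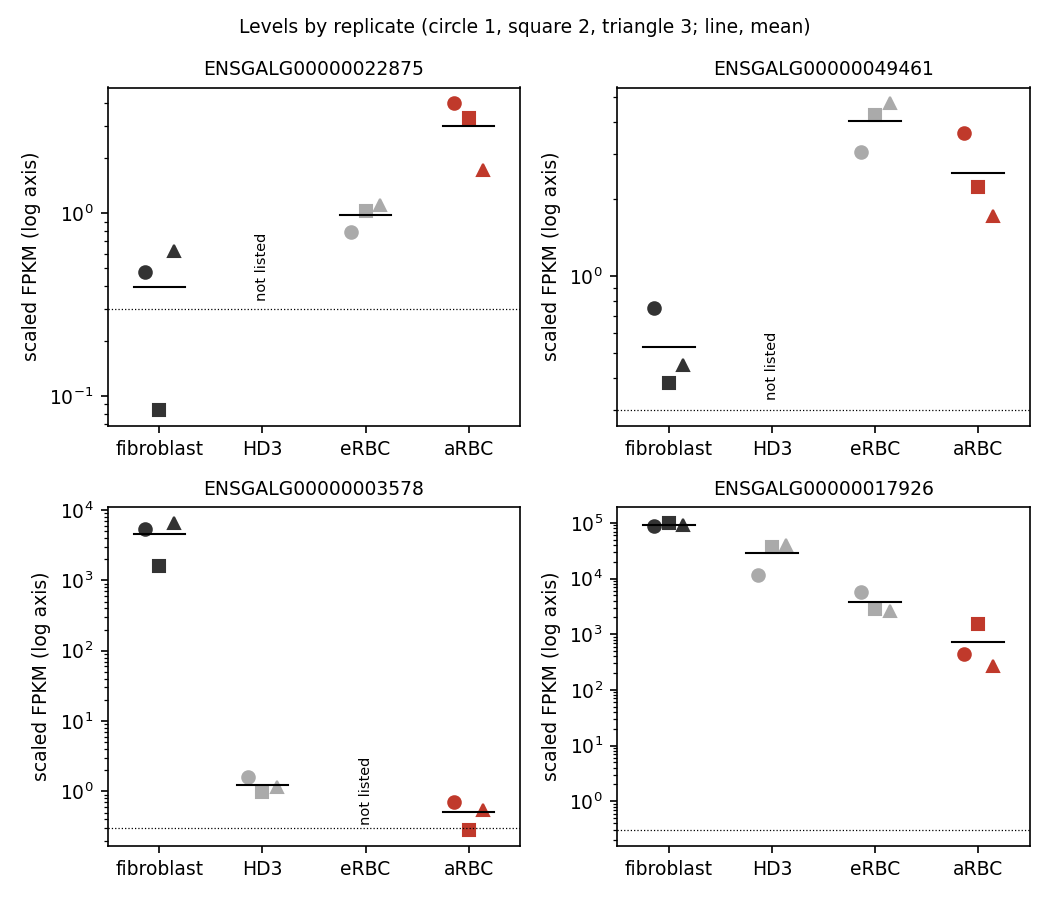
Scaled FPKM (y axis, log) of the 4 named genes in each replicate of fibroblasts, HD3 erythroblasts, eRBC and aRBC (x axis), with a line at the mean of 3 and a dotted line at the cutoff of 0.3. The upper genes have their 3 aRBC samples above the fibroblast samples, the lower genes have them below. The 4 genes were chosen among called genes without overlap.

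The genes with the highest aRBC means were not the same kind of gene throughout. Of the 10 highest, 5 were also among the 10 highest in fibroblasts. Among the same 10 genes 7 were shorter than 350 bp, a share that was not taken over the whole aRBC list. In aRBC 8 of the 10 were called lower, against 96.2% of all 756 tested genes. The other 2 ranked 5 and 6 in aRBC but only 1015 and 1389 in fibroblasts. The first of them, with a length of 597 bp, was at 131, 138 and 74.3 in aRBC and at 68.9, 57.5 and 56.1 in fibroblasts. The second, with a length of 745 bp, was at 122, 68.8 and 68.8 in aRBC and at 58.0, 43.5 and 40.9 in fibroblasts. In both, every aRBC sample was above every fibroblast sample, by means 1.88-fold and 1.82-fold. Neither passed the test, with log2 fold changes of 0.86 and 0.82 and limma adjusted p of 0.0615 and 0.0646. With the genes ENSGALG00000022875 and ENSGALG00000049461 they make up the 4 genes whose aRBC samples all lay above the fibroblast samples. Both were far higher in eRBC, at 3491 ± 655 (SD, n = 3) and 2542 ± 155 (SD, n = 3). Both were chosen for description after their values were seen.

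Several of the 8 lower genes differed widely between the aRBC samples. A gene of 205 bp was at 190, 467 and 30.3 in aRBC and at 4080, 6717 and 5836 in fibroblasts, a ratio of 24.2. A gene of 287 bp was at 26.0, 20.6 and 418 in aRBC and at 17060, 30182 and 20529 in fibroblasts, a ratio of 146. The first was lowest and the second highest in aRBC replicate 3. Genes of 132, 139 and 141 bp had fibroblast to aRBC ratios of 9.17, 11.9 and 9.41, well under the median of 49.3 over the shared genes. The median ratio between the highest and the lowest replicate over the 10 genes was 6.74 in aRBC and 1.71 in fibroblasts.

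As shares of the reads the same 2 genes differed much more than per cell. The gene of 597 bp held 2.98% ± 1.06 (SD, n = 3) of listed aRBC reads and 0.00372% ± 0.00043 (SD, n = 3) in fibroblasts. The gene of 745 bp took 2.82% ± 1.22 (SD, n = 3) in aRBC and 0.00362% ± 0.000706 (SD, n = 3) in fibroblasts. The fibroblast shares came from 1847 and 1761 reads in all 3 libraries together. These shares are taken over lists of unequal length.

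The split into higher and lower genes depended on how samples were scaled. After centring the samples on their median genes, 54.4% of the 756 genes were called, 218 higher (28.8%) and 193 lower (25.5%) in aRBC. With samples scaled to equal sums, 51.5% were called, of which 278 were higher (36.8%) and 111 lower (14.7%). With limma voom on the recovered reads, which compares shares of the reads on listed genes, 86.6% were called, of which 616 were higher (81.5%) and 39 lower (5.16%). The aRBC reads are spread over 804 genes and the fibroblast reads over 13451, so these shares are taken over lists of unequal length. The part of list length in these calls was not tested. The median log2 fold change over the 756 genes was 0.16 after centring, 0.75 with equal sums and 2.94 with voom. With genes missing from a table set to 0.3, 10886 genes could be tested, of which 97.7% were lower and 0.0276% higher in aRBC. A gene missing from aRBC passed the filter on the mean only through its fibroblast values. Its direction was thus set in advance, and these shares are no separate result.

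The genes called after median centring were split by the same values that give their levels, so these levels are a description only. The 218 higher genes had a median scaled FPKM of 7.75 in fibroblasts and 0.558 in aRBC. The 193 lower genes had medians of 219 and 0.544. Of the higher genes 77 were listed in eRBC (35.3%), and of the lower genes 169 (87.6%), against 460 of all 756 tested genes (60.8%). How far the fibroblast level accounts for these listing shares was not tested. Genes shorter than 200 bp numbered 34 among the higher and 5 among the lower genes, and 66 of all 756 (8.73%).

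**Figure D4:**
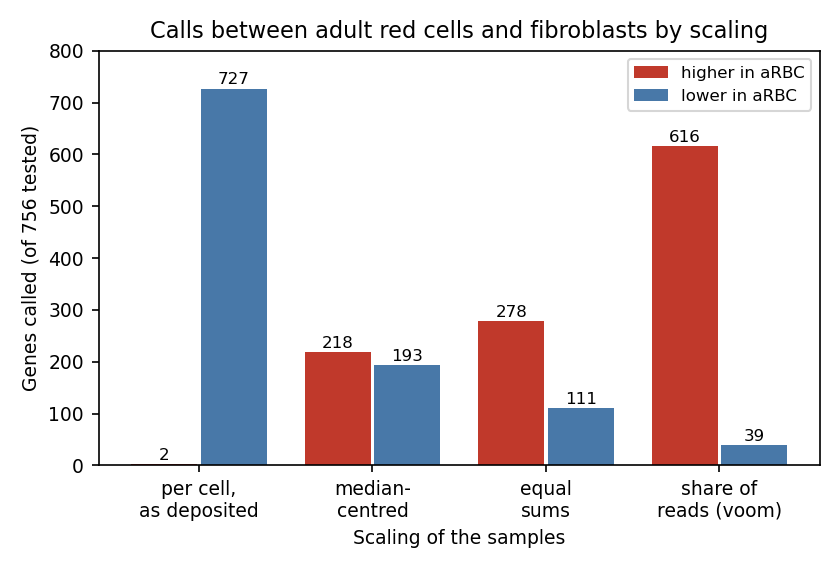
Number of genes called higher (red) or lower (blue) in aRBC among 756 tested (y axis) under 4 scalings of the samples (x axis). Lower genes go from 727 per cell to 39 as shares of the reads, and higher genes from 2 to 616.

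A smaller set of genes kept its call under the 4 scalings. ENSGALG00000022875 and ENSGALG00000049461 were the 2 higher in each. A further 39 genes were lower in each. The 2 are all the genes called higher per cell, and the 39 are all those called lower with voom. The calls under the other scalings thus add no support beyond the strictest one. The high fibroblast means and ratios of the 39 largely restate that call. These 39 had fibroblast means from 354 to 4502 with a median of 668, and aRBC means from 0.305 to 1.78 with a median of 0.466. Their ratio of fibroblast to aRBC mean ran from 917 to 8837. Their median length was 953 bp, and none was shorter than 200 bp. Of the 39 genes 35 were listed in eRBC (89.7%), against 60.5% of the 768 shared genes. Among the 192 shared genes with the largest ratios the share was 83.3%. The part of the fibroblast level in these shares was not tested. All 39 were listed in HD3 erythroblasts, where 97.5% of the shared genes were listed. Under the first 3 of these scalings 111 genes were lower in each, 98 of them listed in eRBC. These 111 are all the genes called lower with equal sums.

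Genes that differed little per cell were less often listed in eRBC and HD3 erythroblasts, and more often short, than those that differed most. Listing is itself a cutoff on level, and gene length enters every scaled FPKM, so these properties are no separate check. The 768 genes were ordered by their ratio and divided into 4 groups of 192. In the group with the smallest ratios, up to 17.7, 42.2% of the genes were listed in eRBC and 90.6% in HD3 erythroblasts. In the group with the largest ratios, from 123, the shares were 83.3% and 100%. The ratio is made from the fibroblast and aRBC levels. The fibroblast medians were 6.32 and 204 in those groups, while the aRBC medians were 0.781 and 0.461. The part of the fibroblast level in the listing shares was not tested. Of the 192 genes with the smallest ratios 39 were shorter than 200 bp, against 14, 9 and 5 in the groups with larger ratios.

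Short genes took a larger part of the signal in aRBC over all listed genes. These shares are taken over lists of unequal length, and no share over the shared genes alone was taken. Single recovered lengths are lower estimates. Genes shorter than 200 bp held 15.6%, 7.77% and 24.1% of the sum of scaled FPKM in aRBC replicates 1 to 3 and 2.18%, 2.10% and 3.27% in fibroblasts. The groups did not overlap, and the two-sided exact permutation p was 0.1 (adjusted p of 0.1), the smallest possible here. As a share of the reads the values were 1.98%, 1.52% and 3.62% in aRBC against 0.132%, 0.153% and 0.209% in fibroblasts. These genes made up 71 of 804 genes in the aRBC list (8.83%) and 762 of 13451 in the fibroblast list (5.67%). Of the 71, 3 genes with lengths of 132, 139 and 141 bp were among the 10 highest in aRBC. Their aRBC means were 77.6, 74.4 and 52.5, against a mean aRBC sum of 2743 over all listed genes. Among shared genes, the median ratio of fibroblast to aRBC mean was 14.98 for 67 short genes and 52.7 for the 701 longer ones. The part of gene length in these values was not tested.

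The 10 highest genes held more of the signal in aRBC over all listed genes, but not over the genes both tables share. The 10 highest genes of a sample held 57.0%, 76.3% and 63.4% of the sum in aRBC and 29.0%, 30.8% and 33.0% in fibroblasts, at an exact permutation p of 0.1. These values are taken over lists of unequal length. Over the 768 shared genes the shares were 57.8%, 76.7% and 64.1% in aRBC and 64.3%, 62.4% and 68.2% in fibroblasts. There the groups overlapped, at a two-sided exact permutation p of 0.9.

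**Figure D5:**
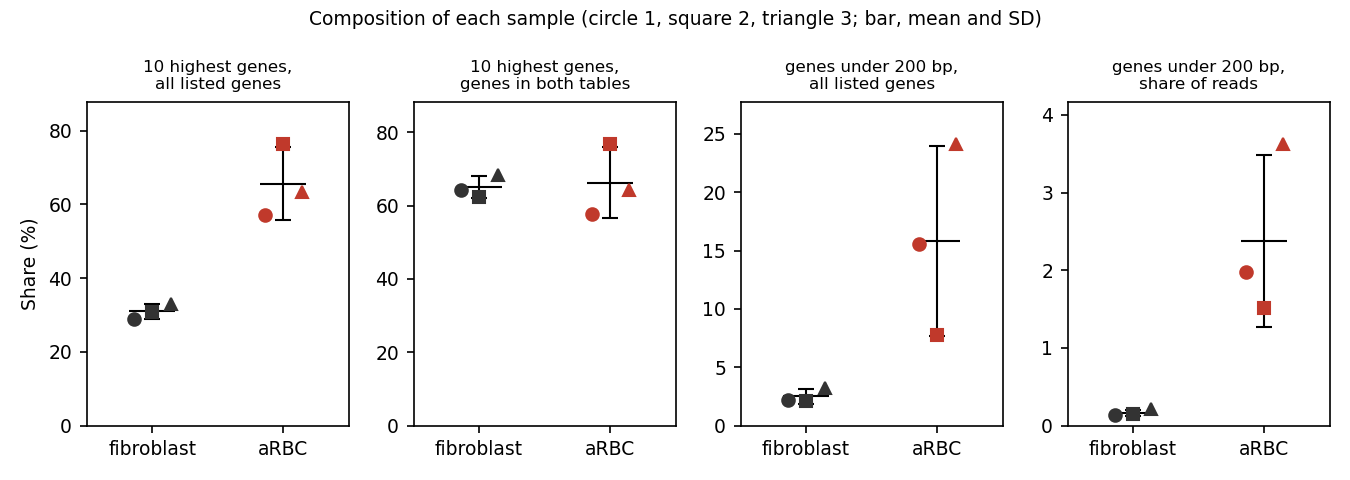
Share in percent (y axes, from 0) of the 10 highest genes and of genes under 200 bp in each fibroblast and aRBC sample (x axis), with mean and SD of 3 samples. The groups are apart in the panels of all listed genes and of reads, and overlap in the panel of the 10 highest among genes in both tables.

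The aRBC samples agreed less well with each other than the fibroblast samples did. Across the 768 shared genes the median coefficient of variation was 0.403 in aRBC and 0.223 in fibroblasts. Spearman's rho between an aRBC and a fibroblast sample was 0.00485 to 0.299 over the 9 pairs. These values describe libraries across genes of a list cut at 0.3, and genes are not replicates. Replicate 3 had the lowest of the 3 aRBC values in 403 of the 768 genes and the highest in 269. It was also the highest in 6 of the 10 genes with the highest aRBC means. One of these, with a length of 1621 bp, was at 11.9, 2.87 and 171 in aRBC. Without aRBC replicate 3, 3 genes were called higher and 725 lower in aRBC, and without aRBC replicate 1 these numbers were 1 and 718.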

How the data were processed

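The authors deposited 1 table of FPKM values for each of 4 cell types, scaled to cell number per the name of each table, with a column per sample and their average. Per the submitters' processing notes, STAR 2.7.2b, featureCounts and build GRCg6a were used. Per the labels' protocols, libraries were stranded and made from total RNA after removal of ribosomal RNA. How cell numbers were measured is not given in the sources used here. Each sample's description gave its column. Of 25635 genes in the RefSeq table, 0 carried an Ensembl ID.

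An FPKM equals whole reads divided by gene length, multiplied by a value that all genes of a sample share. These values, the lengths and the reads were recovered from ratios between samples and genes. All 13889 genes received a length, and their reads lay within 0.05 of whole numbers. Whole reads were the criterion for a length, so this is no separate check. In fibroblasts the recovered library totals came to whole numbers (9069947, 24014646 and 19380182 within 0.00111), so their factor was taken as 1. Single lengths are lower estimates. Recovery and the fit were tested on simulated data. The simulated reads were drawn from the recovered lengths and reads, so a length recovered too short would not show there. In the simulated fit rises and falls were equally many, unlike the calls per cell.

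Genes were fitted over the 6 samples with limma 3.58.1 (R 4.3.3), its mean-variance trend and no block. Single values were tested by exact permutation with scipy 1.17.1. Deviations from group means of same-numbered aRBC and fibroblast samples correlated at 0.153, 0.215 and 0.333 over the tested genes. For samples of unlike number the correlations ran from -0.364 to 0.126. The labels do not state that samples of equal number are paired. The main fit and the permutation tests treated the samples as unpaired, and a fit with the replicate number as a block is given below. The genes given by ID were the 2 largest rises, the largest fall and the gene with the highest aRBC mean, among called genes without overlap. The comparison, lists and tests were chosen with earlier results of these data known. Genes sharing reads with near-identical copies could not be identified without names. The share of genes under 200 bp was added after the data were seen.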

Additional observations from a re-analysis of the deposited data

How the results depend on the processing

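The counts of called genes depended on the scaling. In place of 2 higher and 727 lower genes, centring samples on their median gene gave 218 and 193, equal sums gave 278 and 111, and voom on recovered reads gave 616 and 39. Requiring a mean of 1 in each group left 156 genes, with 0 higher and 141 lower. The fit of all 12 samples over 458 genes in the 4 tables gave 0 and 446. Neither of these tests the 2 higher genes, by construction. At an unadjusted limma p under 0.05, 0 and 1 genes lay above 0 there. With genes missing from a table set to 0.3, 3 were higher and 10638 lower, but a constant has no spread, so these p-values are too small. The filter also set the direction of the genes missing from aRBC in advance. Without 1 sample the higher genes numbered 1 to 3 and the lower genes 715 to 727. With the replicate block 2 genes were higher and 729 lower. That block added 2 lower genes and changed no other call on the per-cell scale. After median centring the block gave 223 higher and 195 lower genes, and leaving out 1 sample gave 200 to 214 and 183 to 190. Of fibroblast genes in the 5 level classes, 0.114%, 0.409%, 1.14%, 10.3% and 41.2% had an aRBC mean of 1 or more. ENSGALG00000049461 had a log2 fold change of 0.96 without aRBC replicate 1. ENSGALG00000017926 had -0.84 with equal sums and 1.27 with voom. ENSGALG00000003578 and ENSGALG00000022875 kept their call in 16 of the 16 alternatives that gave each a value. Leaving out 1 sample moved the ratio of fibroblast to aRBC sums between 170 and 213, of genes at 1 or more between 64.6 and 71.4, and of the 10-gene share between 0.443 and 0.514. For the share of genes under 200 bp it moved between 0.127 and 0.216. At a level of 3 in place of 1, the ratio of gene numbers was 183. The causes were not tested.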
